A study of Mus musculus with 2 samples.

Results

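Imprinted growth genes were followed in 2 cultures of mouse embryonic fibroblasts, primary connective tissue cells of the embryo. The members were chosen by symbol: H19, Dlk1, Peg3, Mest, Plagl1, Grb10, Ndn, Meg3, Peg10 and Sgce, taken with every probe that the platform annotation assigns to them. The annotation gave 8 of these 10 genes a probe, 12 probes among the 25697 on the array and 8 genes of the 16593 named, while H19 and Meg3 were not analysed here. The first culture is labelled as given no agent and the second as given Fgf2, fibroblast growth factor 2, a secreted ligand of receptor tyrosine kinases. Both are labelled male, and neither strain, embryonic age, passage, Fgf2 dose nor exposure time is given in the labels. The series' design text calls both cultures untreated, so every direction below rests on the titles and agent labels. Each group was 1 culture on 1 Illumina bead array, so no value has a replicate, no test was possible, and the spread between cultures is unknown.

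An imprinted gene is transcribed mainly from the copy inherited from 1 parent, because methylation of CpG dinucleotides at a control region was set differently in egg and sperm. Many imprinted genes act on fetal and placental growth. In mouse, genes active on the paternal copy, such as Igf2, often favour growth, whereas several active on the maternal copy, such as Igf2r, Cdkn1c and Grb10, restrain it. A set of imprinted genes that includes Plagl1, Igf2, H19, Dlk1, Mest, Grb10, Ndn and Cdkn1c has been described in mouse as a co-expressed network in embryonic and mesenchymal tissues. Array signals add the copies together, so the parental origin of a transcript was not measured.

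Promoter windows of 300 bases, from 250 before to 50 after a transcript start, were available from RefSeq (build GRCm38.p6) for 7 of the 10 genes. The 4 shown belong to the members whose signals differed between the arrays. CpG dinucleotides are in capitals, and whether any of those shown carries an imprint was not measured. The windows are Dlk1 at chr12:109452573-109452872 (plus strand), Mest at chr6:30733256-30733555 and chr6:30737800-30738099 (both plus strand), and Grb10 at chr11:12037371-12037670 (minus strand).
Dlk1: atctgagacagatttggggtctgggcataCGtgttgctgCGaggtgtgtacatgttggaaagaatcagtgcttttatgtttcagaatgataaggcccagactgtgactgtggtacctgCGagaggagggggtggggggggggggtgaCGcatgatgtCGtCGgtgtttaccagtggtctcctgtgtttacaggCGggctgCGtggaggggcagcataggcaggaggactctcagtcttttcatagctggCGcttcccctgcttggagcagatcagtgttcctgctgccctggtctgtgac
Mest, upstream start: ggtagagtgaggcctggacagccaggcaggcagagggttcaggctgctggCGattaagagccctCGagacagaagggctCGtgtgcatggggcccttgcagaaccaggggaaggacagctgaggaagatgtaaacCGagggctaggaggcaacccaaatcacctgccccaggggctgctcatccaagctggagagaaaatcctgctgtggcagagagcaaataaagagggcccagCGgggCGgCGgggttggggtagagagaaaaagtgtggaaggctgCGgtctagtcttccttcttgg
Mest, downstream start: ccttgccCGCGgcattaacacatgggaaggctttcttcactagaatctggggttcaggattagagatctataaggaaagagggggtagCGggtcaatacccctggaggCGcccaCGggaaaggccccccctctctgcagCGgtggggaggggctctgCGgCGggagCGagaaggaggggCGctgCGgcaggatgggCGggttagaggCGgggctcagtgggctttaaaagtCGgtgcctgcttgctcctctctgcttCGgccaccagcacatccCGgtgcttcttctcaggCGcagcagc
Grb10, upstream start: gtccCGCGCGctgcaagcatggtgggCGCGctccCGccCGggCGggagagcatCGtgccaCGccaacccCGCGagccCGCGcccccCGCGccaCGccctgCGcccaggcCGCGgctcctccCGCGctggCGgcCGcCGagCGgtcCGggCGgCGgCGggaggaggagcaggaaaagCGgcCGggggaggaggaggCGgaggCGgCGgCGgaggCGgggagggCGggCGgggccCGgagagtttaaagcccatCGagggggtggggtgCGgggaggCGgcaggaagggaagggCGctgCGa

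The Dlk1 window holds 9 CpG dinucleotides, near the median of 7 over 32851 mouse promoter windows. The Grb10 window shown holds 45, a number that 1.93% of all windows reach, and 80.0% of its bases are G or C. A second Grb10 window, at chr11:12027922-12028221, holds only 9. The 2 Mest starts also differ, with 8 CpG in the upstream window and 17 in the downstream one. Plagl1 has 26, Peg3 13 and Ndn 11 CpG in their windows. The members therefore do not share a CpG density, and a gene with 2 starts can have a dense and a sparse one.

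**Figure D1:**
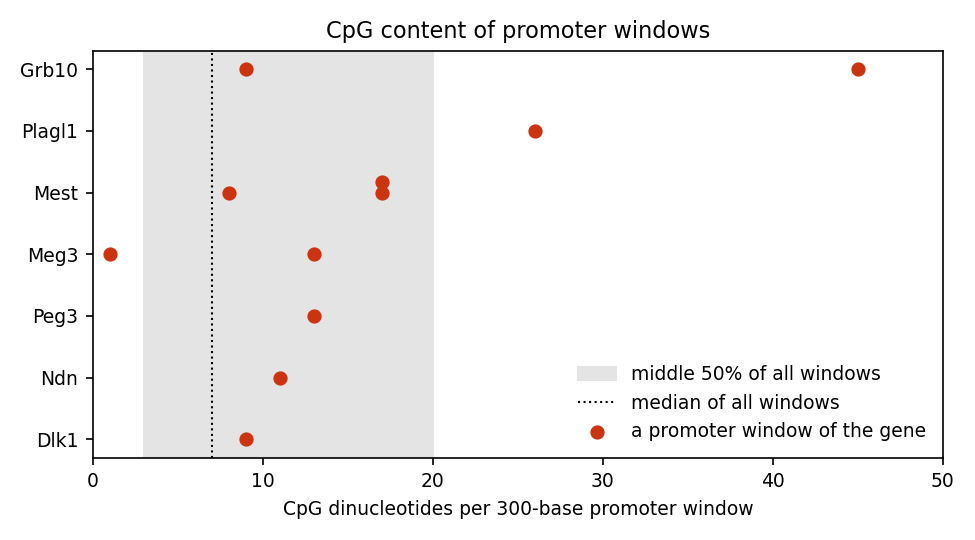
CpG dinucleotides per 300-base promoter window (x axis) for the 7 genes with a RefSeq window, 1 point per window, with the median (7) and the middle 50% (3 to 20) of all 32851 windows. Only 1 Grb10 window, with 45, and the Plagl1 window, with 26, lie above the middle range, and 1 Meg3 window, with 1, lies below it.

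Short motifs were searched on both strands of the 11 member windows, 2 of which, at the downstream Mest start, overlap almost wholly. GGGCGG, the GC box bound by Sp1-type factors, was in 6 of the 11 (Mest, Ndn, Plagl1 and Grb10), against 35.7% of all windows. TATAAA and CCGGAA, an ETS-type core, were each in 1 window, that of the upstream Meg3 start, against 13.6% and 14.9% of all windows. TGACTCA, the AP-1 motif, and GCCATNTT, a YY1-type motif, were in 0 of 11, against 5.20% and 6.05% of all windows. GGGCGG and CCGGAA each hold 1 CpG, so their counts are not independent of the CpG counts above.

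The arrays were similar in depth of signal: 10564 of 25697 probes (41.1%) without Fgf2 and 10262 (39.9%) with it had a detection p, the share of negative controls at least as bright, below 0.01, the threshold for calling a probe detected here. Of 14 fibroblast markers with a probe, 13 were detected on both arrays, with differences from -2.53 for Col1a1 to 2.39 for Lum (Fgf2 minus no Fgf2, log2). At least 2-fold lower were 3 of them, Col1a1, Col1a2 and Pdgfrb, against 2.52% of all genes detected on both arrays. At least 2-fold higher were 2, Lum and Pdgfra, against 1.8%. Pdgfrb read 196.5 with Fgf2, near the lowest detected signal on that array, 175.9. Vim, Thy1, Prrx1 and Twist1 lay between -0.11 and 0.22. Eif2s3y and Uty, genes of the Y chromosome, were above background on both arrays and Kdm5d, another, on neither, but Xist, normally silent in male cells, was also above it on both, which goes against the label. The signals of the brighter Xist probe were 476.6 without Fgf2 and 584.1 with it, and those of Eif2s3y 575.1 and 496.0. Whether the sex mix of the cultures bears on any member was not tested. Levels below are log2 values after background correction and quantile normalization, all differences are Fgf2 minus no Fgf2, and a gene is represented by its brightest probe.

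Of the 8 members with a probe, 4 were detected on both arrays: Dlk1, Ndn, Grb10 and Mest. Over all genes, 6898 of 16593 were. Dlk1 was higher with Fgf2 by 2.23-fold, Mest was lower by 1.60-fold and Grb10 by 1.32-fold, and Ndn was nearly level. At least 2-fold higher was 1 of the 4, against 1.8% of all 6898 genes detected on both arrays, and at least 2-fold lower were 0, against 2.52%. At 1.5-fold, 1 of the 4 was higher, against 6.76% of all genes, and 1 lower, Mest, against 7.25%. At 3-fold, 0 were higher, against 0.449%, and 0 lower, against 0.913%. The median of the 4 differences was -0.15, and that of all 6898 genes 0.03. The other 4, Peg3, Plagl1, Peg10 and Sgce, were detected on neither array, so no fold is given for them. In whole cultures, fewer cells with a transcript and less transcript per cell cannot be told apart.

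**Figure D2:**
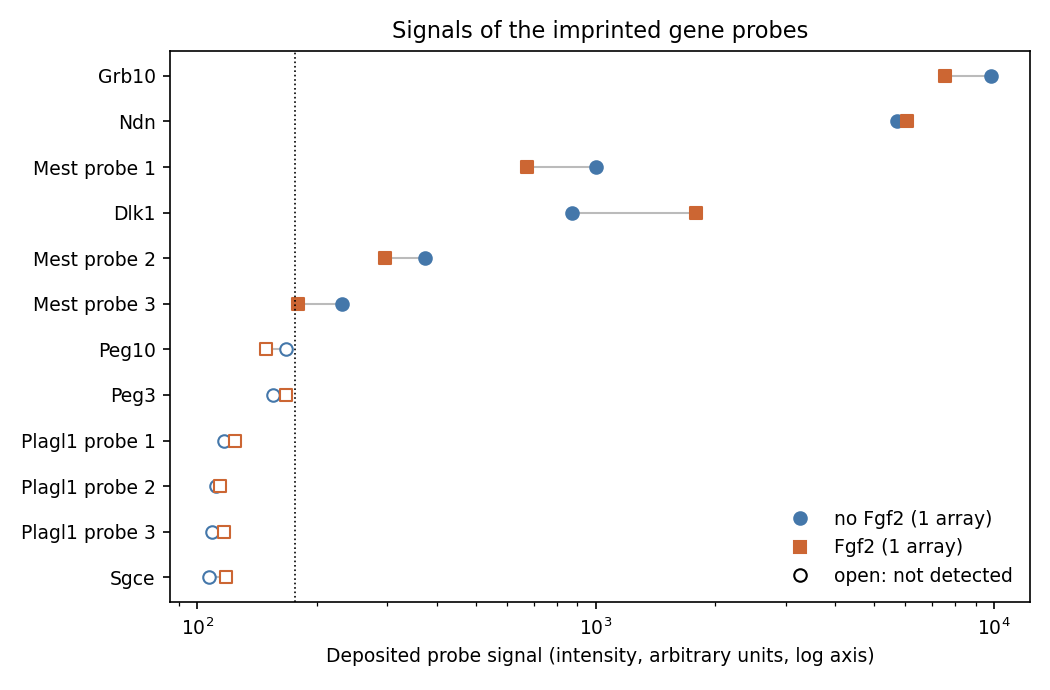
Deposited signal (x axis, arbitrary units, log scale) of each of the 12 member probes on the array without Fgf2 (circles) and with Fgf2 (squares). Filled points are detected, and the dotted line marks the lowest signal of any detected probe on the Fgf2 array, 175.9. Probes differ in their affinity, so only the 2 points of a row can be set against each other. The Dlk1 points move right with Fgf2, all 3 pairs of Mest points move left, and the probes of Peg10, Peg3, Plagl1 and Sgce lie at background.

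Among the members that act at the cell surface or in signalling, Dlk1 encodes delta-like 1, a transmembrane protein related to Notch ligands, also called Pref-1, that holds preadipocytes in an undifferentiated state. Its single probe had a signal of 871.9 without Fgf2 and 1783 with it, and a detection p of 0 on both arrays. The normalized levels were 9.56 and 10.72, a difference of 1.16. Only 1.16% of the 6898 genes had a greater positive difference, which placed Dlk1 81st from the top. In the authors' processed log2 values the levels were 9.49 and 10.71, a difference of 1.22. The difference exceeded the pooled SD of 0.22 between different probes of the same gene. That SD compares probes on the same arrays, so it measures neither an error shared by an array nor the spread between cultures. It gives no test. With 1 probe, no second reading of the Dlk1 transcript was available.

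The genes most like Dlk1, by Euclidean distance of the normalized levels on the 2 arrays, were Chst1, which encodes a carbohydrate sulfotransferase, at a distance of 0.056, the DNA repair gene Ercc1 at 0.076 and Nfkbiz, which encodes an NF-kappa-B inhibitor-type regulator, at 0.13. Their differences were 1.14, 1.16 and 1.04. With only 2 arrays such likeness holds for many genes and is a description of this pair.

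Adipocyte genes, which Dlk1 is known to hold back, were mostly below detection. Of 9 with a probe, Pparg, the master regulator of the adipocyte fate, and Lpl, a lipoprotein lipase, were detected on both arrays, and 7 were detected on neither, among them Cebpa, Fabp4, Adipoq and Plin1. Pparg had signals of 267.6 without Fgf2 and 328.1 with it, a difference of 0.45, and Lpl 828.7 and 830.1. The summed signal of the 9 genes, background included, was 2060 without Fgf2 and 2049 with it. Most of this sum came from Lpl and the 7 undetected genes, so it says little about adipocyte content. The part of such content in the Dlk1 difference was not tested.

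Grb10 encodes an adaptor that binds the insulin and IGF1 receptors and restrains their signal. Its probe read 9819 without Fgf2 and 7550 with it, levels of 13.27 and 12.87. The difference was -0.41, and 12.7% of all genes had a lower one. It was -0.41 in the authors' processed values too. Sgce encodes epsilon-sarcoglycan, a membrane protein of the dystrophin-associated complex. Its probe read 107.1 and 117.9, with detection p-values of 0.97 and 0.76, and so did not stand out from the negative controls on either array.

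Mest and Peg10 encode an enzyme-like and a retroelement-derived protein. Mest, also called Peg1, encodes a protein of the hydrolase family in the endoplasmic reticulum and is known in mouse as paternally expressed and growth promoting. It had 3 probes, all detected on both arrays. The brightest read 1003 without Fgf2 and 672.9 with it, levels of 9.81 and 9.13, a difference of -0.68. The next read 372.8 and 296.3, a difference of -0.53. The dimmest read 231.4 and 178.9, a difference of -0.86, and its detection p of 0.0063 with Fgf2 was close to the threshold.

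All 3 Mest probes were thus lower on the array with Fgf2, with a mean difference of -0.69 ± 0.17 (SD, n = 3 probes of 1 gene on the same arrays, not 3 cultures). The spread between these probes was smaller than their mean difference. Of 490 genes with at least 3 probes detected on both arrays, 23.1% likewise had every probe below 0. By the brightest probe, 5.57% of the 6898 genes had a lower difference than Mest. The authors' processed values gave -0.74, -0.56 and -1.07 for the same probes.

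Peg10, derived from a retrotransposon and required for the placenta in mouse, had 1 probe. It read 167.2 without Fgf2 and 148.7 with it, with detection p-values of 0.014 and 0.096. Without Fgf2 it therefore missed the threshold narrowly, and the levels were too close to background to give a direction.

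Among the nuclear members, Ndn encodes necdin, a MAGE family protein that restrains proliferation of neurons and their precursors. Its probe was bright on both arrays, with signals of 5715 without Fgf2 and 6061 with it. The levels of 12.45 and 12.55 gave a difference of 0.10, less than the SD of 0.22 between probes of a gene. The authors' processed values gave 0.08. A difference above that of Ndn was found for 41.7% of all genes, so Ndn lay in the middle of the distribution.

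Peg3 encodes a large zinc finger protein, also known as Pw1. Its probe read 154.8 without Fgf2 and 167.3 with it, with detection p-values of 0.050 and 0.016, above the threshold on both arrays. Plagl1 encodes Zac1, a zinc finger transcription factor that can arrest the cell cycle and that stands at the centre of the imprinted network described in mouse. All 3 of its probes lay at background, with signals from 109.0 to 116.5 without Fgf2 and from 114.1 to 124.3 with it. Their detection p-values ran from 0.53 to 0.95 over both arrays. A transcript was not detectable with these probes, which does not show that it was absent.

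**Figure D3:**
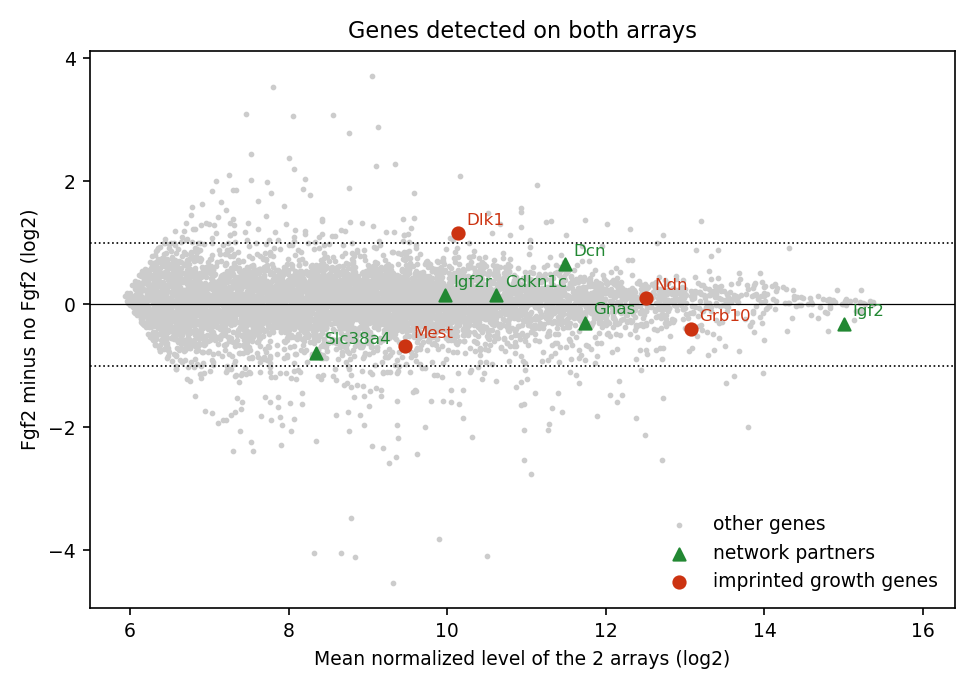
Difference between the arrays (y axis, Fgf2 minus no Fgf2, log2) against the mean normalized level (x axis, log2) of the 6898 genes detected on both arrays, 1 point per gene. Dotted lines mark 2-fold. Of the 4 imprinted growth genes (red circles), Dlk1 at 1.16 lies above the upper line, and of the 6 network partners (green triangles) none lies beyond either line.

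The 6 network partners listed beside the members, Igf2, Igf2r, Cdkn1c, Gnas, Dcn and Slc38a4, were all detected on both arrays, against 6898 of 16593 over all genes. At least 2-fold apart were 0 of the 6, against 4.32% of all genes. Igf2, which encodes the fetal insulin-like growth factor and is the neighbour of H19, read 36307 without Fgf2 and 30016 with it, a difference of -0.32. Igf2r, whose product binds and removes that factor, had 1 probe at 0.15 and another at -0.15, and so showed no direction. Cdkn1c, the cyclin-dependent kinase inhibitor p57, read 1631 and 1751, a difference of 0.15. Gnas, which encodes a G protein alpha subunit, differed by -0.29 and by -0.40 in its other detected probe.

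The widest differences among the partners went opposite ways. Slc38a4, an amino acid transporter gene, read 537.0 without Fgf2 and 365.5 with it, a difference of -0.78. Dcn, which encodes the matrix proteoglycan decorin and is imprinted in the mouse placenta, read 2410 and 3716, a difference of 0.66, and its second probe gave 0.93. The median of the 6 was -0.07. Dlk1 and Mest, which belong to the same described network, also lay on opposite sides of 0.

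Genes that share an imprinted cluster with a member gave few readings. Of 29 such neighbours listed, 21 had a probe, 7 were detected on both arrays, 1 on a single array and 13 on neither. Over all 16593 genes, 6898 were detected on both arrays, 472 only without Fgf2, 279 only with it and 8944 on neither. Beside Dlk1 and Meg3, Dio3, the thyroid hormone deiodinase gene at the far end of the cluster, was detected only with Fgf2. Its signals were 159.6 without Fgf2 and 194.5 with it, both near background. Rtl1, the retrotransposon-like gene between them, read 126.1 and 139.5 and was detected on neither array. Of the 3 genes of this cluster with a probe, Dlk1 was thus the only one above background on both arrays.

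Around Peg10 and Sgce, Pon2 and Pon3, paraoxonase genes imprinted in mouse placenta, were detected on both arrays. Pon3 read 400.5 without Fgf2 and 276.9 with it, a difference of -0.84. Its other 2 probes, near background and detected on neither array, did not show it, with differences of 0.12 and 0.04. The first of them narrowly missed the threshold on both arrays. Pon2 read 2450 and 1772, a difference of -0.47. Casd1, Ppp1r9a, Asb4, Calcr and Tfpi2 were detected on neither array. In the Ndn cluster, Snrpn, a splicing protein gene, differed by -0.15, the ubiquitin ligase gene Ube3a by -0.37 and Atp10a by 0.08, while Magel2, Mkrn3 and Peg12 were detected on neither array. A second probe of Ube3a read 240.1 without Fgf2 and 158.2 with it and was detected only without Fgf2, so no difference is given for it. Ddc, next to Grb10, differed by -0.20 and Cobl was not detected. Usp29 and Zim1, beside Peg3, were not detected either, nor was Ins2, beside H19 and Igf2. Zim2, Zim3, Zfp264, Copg2, Klf14, Rian, Mirg and Begain were not analysed here.

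A wider list of 74 genes known as imprinted in mouse, many of them imprinted only in placenta or brain, had 58 genes with a probe. Of these, 24 were detected on both arrays, against 6898 of 16593 over all genes. The list holds the network partners and the neighbours above, and also Plagl2, a paralog of Plagl1 that is not itself known as imprinted. At least 2-fold apart were 0 of the 24, against 4.32% of all genes. Of the 24, 13 lay above 0 and 11 below, and their median was 0.07. Over all genes 53.9% lay above 0 and 45.9% below. After Pon3, Slc38a4, Dcn and Pon2, the widest differences were those of Qpct, a glutaminyl cyclase gene, at 0.44 and Impact, a regulator of translation under amino acid shortage, at -0.39. Nnat, which encodes neuronatin, was detected only with Fgf2, with signals of 167.0 and 190.3, and Trappc9 only without it, with 180.0 and 171.0, all near background. By brightest probes, 1 gene of the members and the wider list together, Dlk1, was at least 2-fold apart, a share near the 4.32% of all genes.

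**Figure D4:**
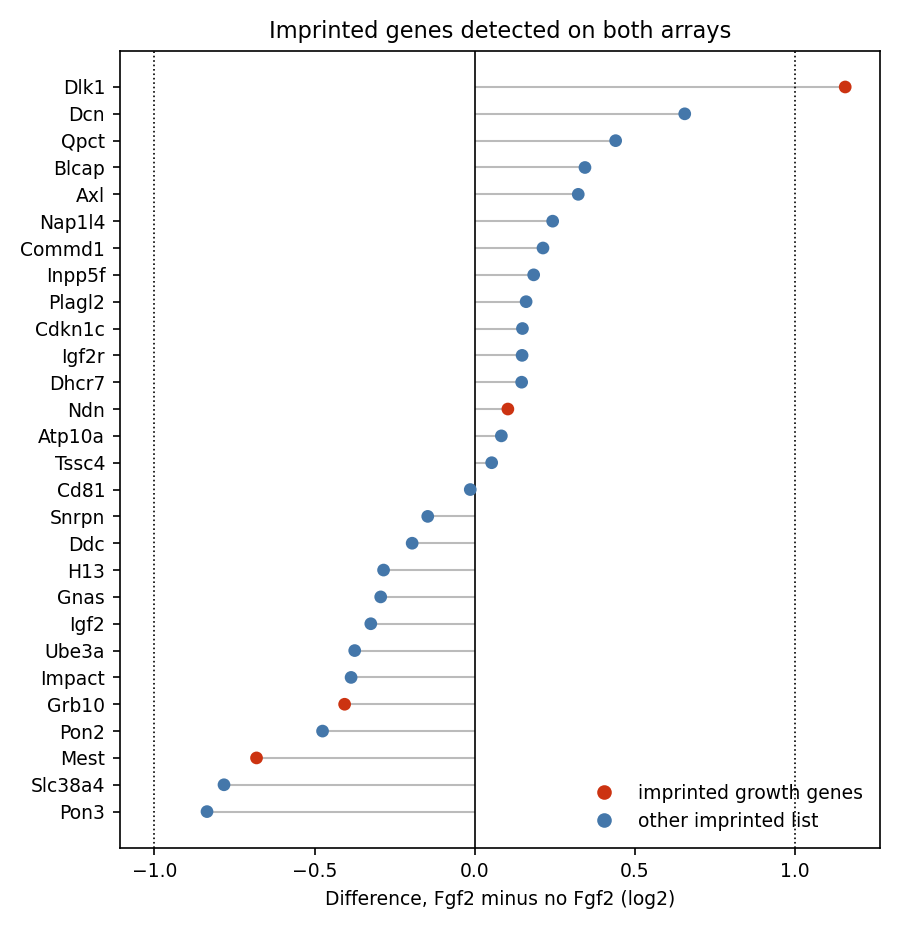
Differences (x axis, Fgf2 minus no Fgf2, log2) of the 24 genes of the wider list and the 4 imprinted growth genes detected on both arrays, 1 point per gene by its brightest probe. Dotted lines mark 2-fold. Of these points 1, Dlk1 at 1.16, is beyond a line, against 4.32% of all genes, and the others run from -0.84 for Pon3 to 0.66 for Dcn.

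Among genes that keep or read imprints, Trim28, Dnmt1 and Uhrf1 were somewhat higher with Fgf2 and Dnmt3b lower, all by less than 2-fold. Of 21 with a probe, 12 were detected on both arrays, against 6898 of 16593 over all genes. Of the 12, 9 lay above 0 and 3 below, against 53.9% and 45.9% of all genes, with a median of 0.14. At least 2-fold apart were 0 of the 12, against 4.32% of all genes. Trim28, the corepressor that guards methylated imprints, read 2397 without Fgf2 and 3443 with it, a difference of 0.54. Dnmt1, which copies DNA methylation to the new strand, read 709.0 and 970.4, a difference of 0.51. Its partner Uhrf1 differed by 0.43, Smchd1, which silences clustered and X-linked genes, by 0.31 and the histone methyltransferase gene Ehmt2 by 0.25. The second probe of Smchd1 gave -0.19. Dnmt3b, a de novo methyltransferase gene, read 250.0 and 197.8, a difference of -0.71. Its signal with Fgf2 was near the lowest detected one on that array, 175.9, and without background correction the difference was -0.35. Dnmt3l, its cofactor in germ cells, passed detection on the array without Fgf2 alone, with signals of 173.8 and 143.3, too dim for a bound on its fold. DNA methylation itself was not measured.

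Some of the imprinted genes are also known from muscle, so markers of that tissue were read beside them. Of 12 skeletal muscle markers with a probe, the 2 detected on both arrays were Des, at -1.10, and Acta1, at -0.97. The defining regulators Myod1, Myog, Myf5, Myf6 and Pax7 were detected on neither array. The summed signal of the 12, background included, was 4473 without Fgf2 and 2957 with it. Acta1 read 2251 and 1198 and Des 874.0 and 470.8. The fall in the sum was mostly theirs, so it says little about muscle content. The sum was lower on the same array as Mest and Grb10, and its part in their differences was not tested. Of 7 trophoblast markers with a probe only Gata3 was detected on both arrays, with a difference of -0.48, or -0.20 without background correction. The summed trophoblast signals were 966.4 without Fgf2 and 970.1 with it. None of 8 endothelial markers and none of 5 erythroid ones was detected on both arrays, and 2 of 10 macrophage markers were, Cd14 with a difference of 1.58 and Lyz2 with 0.17. Cd14 read 176.2 without Fgf2, near the lowest detected signal on that array, 171.0. Its difference was 0.78 without background correction. Of 11 epithelial markers 3 were detected on both arrays, Krt19 at 1.32, Krt18 at 0.36 and Krt8 at -0.86, and Krt14 was detected only without Fgf2, with signals of 482.8 and 157.9. Without background correction the difference of Krt19 was 0.76. The summed epithelial signals were 2266 without Fgf2 and 2061 with it. Of 11 neural markers 4 were detected on both arrays, Gap43 at 2.28 and Nes, Stmn2 and Map2 between -0.11 and 0.33. The summed neural signals were 2366 without Fgf2 and 3600 with it. Most of that rise was Gap43, which read 403.1 and 1522, so the sum says little about neural content. The part of these markers in the members' differences was not tested.

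**Figure D5:**
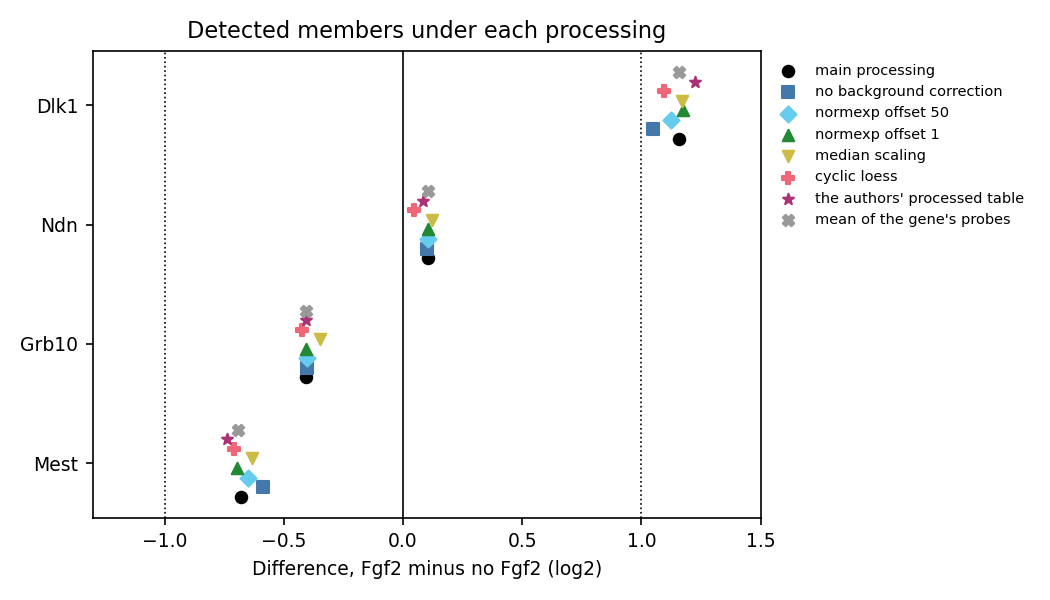
Difference (x axis, Fgf2 minus no Fgf2, log2) of the 4 detected members under the main processing and 7 other settings, 1 symbol per setting. Dotted lines mark 2-fold. Dlk1 lies between 1.05 and 1.22 throughout, Ndn between 0.05 and 0.12, Grb10 between -0.42 and -0.35 and Mest between -0.74 and -0.59, so no member changes side. Averaging a gene's probes can move only Mest, because the others have 1 probe each.

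The plot of the members under each processing shows how far their values rest on the handling of background. Dlk1 was at least 2-fold higher in each of the 8 versions, at its lowest 2.07-fold when no background was removed. The version that averages a gene's probes equals the main one for Dlk1, which has a single probe. Mest, by its brightest probe, ran from -0.59 to -0.74. Its dimmest probe depended most on the background, from -0.38 without correction to -1.07 in the authors' processed values.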

How the data were processed

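Total RNA of 2 cultures, 300 ng each per the labels' protocols, was amplified into biotin-labelled cRNA for 1-colour Illumina bead arrays. The deposited table holds 1 intensity per probe and array on a linear scale, with no normalization between arrays that the values show, and a detection p-value beside each, per the file headers. The authors also deposited log2 values whose quantiles are the same on both arrays. The submitters' processing notes name BeadStudio 3.2, lumi and RMA without roles, and whether a background was subtracted is not stated.

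The correction, with limma 3.58.1 (R 4.3.3), was normexp with the background inferred from the detection p-values, an offset of 16, quantile normalization, log2. Python 3.11.15, pandas 2.3.3, numpy 2.4.6 and matplotlib 3.10.9 did the rest. The steps were tested on simulated arrays with known folds, placed only in probes well above background, so dimmer probes were not covered. A detected probe had a detection p below 0.01. Precision is limited by the number of arrays. In the platform annotation 23978 probes had 1 gene symbol, 0 had several and 1719 had none. The Entrez numbers of 23962 probes were found in a RefSeq table, whose symbol was then used, whether or not it differed. For genes detected on 1 array only the signals are given.

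The groups follow the agent labels, and with 1 array each nothing was tested. The members, lists and rules were chosen with earlier results of these data known. Named are all members and their probes, their cluster neighbours, the network partners, up to 6 genes of the imprinted and of the imprint maintenance lists by absolute difference, those with a bound of at least 2-fold, and the 3 genes nearest to Dlk1. Further genes, Dnmt3l, Nnat, Trappc9, the markers and second probes of listed genes, were named after their values were seen. Alternatives were other corrections, offsets of 50 and 1, median scaling, cyclic loess, the authors' table, averaging a gene's probes, other filters on detection, and 1.5-fold and 3-fold thresholds.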

Additional observations from a re-analysis of the deposited data

How the results depend on the processing

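With 1 array per group no replicate could be left out. No paired analysis was possible because each group holds 1 array. The 4 detected members kept their direction under all 7 other settings of background, normalization, table and probe choice. None moved by more than the pooled SD of 0.22 between probes of a gene. Averaging probes could change only Mest, because Dlk1, Grb10 and Ndn have 1 probe each. At a 3-fold threshold 0 members were higher, against 0.449% of all genes. At 1.5-fold 1 member, Mest, was lower, against 7.25% of all genes. Without a detection filter 8 members were counted and their median was 0.11 in place of -0.15, a change of side that rests on adding the 4 members at background. Without that filter the wider imprinted list had 58 genes and the imprint maintenance list 21. At 1.5-fold, where 6.76% of all genes were higher and 7.25% lower, the wider list had 1 of 24 genes higher and 2 lower. The 6 network partners had 1 higher and 1 lower, and the 12 imprint maintenance genes 0 higher and 1 lower. Without Plagl2, an alternative chosen after seeing the data, the wider list had 23 genes and a median of 0.05. Over all genes, without background correction 54 were at least 2-fold higher and 108 lower, against 124 and 174, and median scaling moved the median difference from 0.03 to 0.08. Signals near background limit Peg3, Peg10, Plagl1 and Sgce.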
